A study of Homo sapiens with 36 samples.

Results

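The 9 CHD genes, CHD1 to CHD9, encode the chromodomain helicase DNA-binding proteins. They were chosen by name, and all 9 were measured in each of 3 RNA-seq experiments, among 16431, 17035 and 16459 genes (18078 genes in any of the 3). No measured value was used to choose them, but the set was proposed with earlier results of these data known. CHD proteins are ATP-driven motors that slide, evict or space nucleosomes, and paired chromodomains near their N-terminus help to bring them to modified or bare histone tails. CHD1 and CHD2 are linked to actively transcribed chromatin, CHD3, CHD4 and CHD5 are alternative motor subunits of the NuRD histone deacetylase complex, and CHD6 to CHD9 act mainly as regulators of developmental genes. In embryonal cells CHD1 is known for keeping chromatin open, and CHD4 for restraining differentiation genes.

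The study asked how KDM6A and KDM6B, the demethylases that remove the polycomb mark from lysine 27 of histone H3, affect the response to cisplatin in testicular germ cell tumor cells. NT2/D1-A4 and 2102EP-C1 are human embryonal carcinoma lines, each a single cisplatin-resistant clone. In the NT2/D1-A4 and in the 2102EP-C1 GSK-J4 experiment the 4 arms were control cells, cisplatin alone, GSK-J4 (an inhibitor of both demethylases) alone, and the combination. The study describes the control cells as untreated vehicle controls, and they are called untreated here. In the knockdown experiment, 2102EP-C1 cells were transduced with hairpins against both demethylases (sh6A+6B) or with the pLKO.1 vector alone. Each line was given PBS buffer or cisplatin. GSK-J4 was given at 1 µM for 3 days, cisplatin at 0.5 µM for 6 h, and cells were harvested 24 h after cisplatin. Each arm had 3 libraries, described as biological triplicates, and the p-values measure the spread between these. All cells of every arm, untreated ones included, were resistant clones, so no sensitive parental cells entered any comparison.

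Depth ran from 26842718 to 49521740 reads per library for NT2/D1-A4, from 30250275 to 53645086 for 2102EP-C1 in the GSK-J4 experiment, and from 79382033 to 100872653 in the knockdown experiment. Of 8 embryonal carcinoma markers listed, TDGF1 was not found under that symbol. The 7 analysed (POU5F1, NANOG, SOX2, LIN28A, DPPA4, DNMT3B and TERF1) all had a mean log2 CPM over 5 in each experiment. Markers of other cell types had lower sums. Per library these were 0.787 to 4.91 CPM for endoderm (1 or 2 of 5 listed analysed) and 9.51 to 41.5 for neural cells (2 or 3 of 4). They were 27.0 to 114 for fibroblasts (3 of 5) and 9.35 to 17.8 for somatic cells of the testis (3 of 4). Some single markers also had a mean log2 CPM over 5. These were the fibroblast marker COL1A2 in the 2102EP-C1 experiments (5.95 with GSK-J4, 6.05 with knockdown) and, narrowly, the neural marker TUBB3 in NT2/D1-A4 cells. The fibroblast sum was 88.3 to 91.3 CPM in untreated and 110 to 113 in cisplatin libraries of 2102EP-C1 cells. It was also higher with cisplatin in NT2/D1-A4 and pLKO.1 cells, but not in sh6A+6B cells. In the knockdown experiment the targeted genes were checked first. KDM6A was at 7.15 to 7.17 log2 CPM in the 3 pLKO.1 libraries and at 6.09 to 6.20 in the 3 sh6A+6B libraries, 50.5% lower. KDM6B was at 4.61 to 4.66 and at 3.51 to 3.75, 50.4% lower. With GSK-J4, KDM6B was higher, by 0.88 log2 in NT2/D1-A4 cells and by 0.81 in 2102EP-C1 cells.

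Sequences upstream of 1 annotated start each are shown for 4 members, CHD2, CHD8, CHD3 and CHD4. GSK-J4 went with higher CHD2 and lower CHD8 in the NT2/D1-A4 line. In 2102EP-C1 cells CHD2 was higher too, but CHD8 changed little (-0.04 log2, adjusted p = 0.35, limma-trend). CHD3 (-0.48 log2) and CHD4 (-0.41) were lower with hairpins and cisplatin than in pLKO.1 cells, and less so with hairpins alone (-0.12 each). RefSeq gave windows for 6 of the 9 members (CHD1, CHD2, CHD3, CHD4, CHD8 and CHD9). Each line holds the 250 bases upstream of an annotated start in GRCh38.p14, 5′ to 3′ on the gene's strand. Capitals mark 4 motifs searched on both strands, the GC box GGGCGG, the CCAAT box CCAAT, the E box CACGTG and the half-site TGACG of the cyclic AMP response element. The windows lie at chr15:92900074-92900323 (plus strand) for CHD2, chr14:21437276-21437525 (minus) for CHD8, chr17:7888539-7888788 (plus) for CHD3, and chr12:6606452-6606701 (minus) for CHD4.
CHD2: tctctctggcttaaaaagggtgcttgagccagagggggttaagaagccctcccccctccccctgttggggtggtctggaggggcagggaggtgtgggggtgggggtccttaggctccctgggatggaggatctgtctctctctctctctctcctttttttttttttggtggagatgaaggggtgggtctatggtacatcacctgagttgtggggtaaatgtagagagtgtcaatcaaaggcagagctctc
CHD8: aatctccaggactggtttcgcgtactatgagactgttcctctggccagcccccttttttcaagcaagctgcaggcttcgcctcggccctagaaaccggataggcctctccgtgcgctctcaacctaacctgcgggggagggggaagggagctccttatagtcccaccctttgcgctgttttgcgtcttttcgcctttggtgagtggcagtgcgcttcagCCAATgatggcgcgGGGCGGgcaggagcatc
CHD3: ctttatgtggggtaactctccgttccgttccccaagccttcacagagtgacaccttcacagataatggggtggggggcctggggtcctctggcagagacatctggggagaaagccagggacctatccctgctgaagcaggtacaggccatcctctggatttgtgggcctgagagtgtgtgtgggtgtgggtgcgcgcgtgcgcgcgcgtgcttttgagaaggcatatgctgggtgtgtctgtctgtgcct
CHD4: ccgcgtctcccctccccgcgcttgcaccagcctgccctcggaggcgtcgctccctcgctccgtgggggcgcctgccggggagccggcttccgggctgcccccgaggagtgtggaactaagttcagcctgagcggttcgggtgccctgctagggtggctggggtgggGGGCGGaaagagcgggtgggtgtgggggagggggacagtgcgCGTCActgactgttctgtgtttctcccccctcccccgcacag
None of the 4 motifs was in the CHD2 or the CHD3 window. The CHD8 window held 1 CCAAT box and 1 GC box close to the start, and the CHD4 window 1 GC box and 1 response element half-site. Of 35116 such windows in the table, 42.6% held a GC box, 32.0% a CCAAT box, 6.34% the E box and 21.2% the half-site. The windows also differed in CpG content, with 0 CpG for CHD2, 9 for CHD3, 15 for CHD8 and 21 for CHD4, beside a median of 11 over all windows. These matches describe the letters of 1 annotated start per gene, and the start used in these cells was not measured. Of the 4 windows shown, only that of CHD2 lies directly upstream of the annotated span of its gene. Windows of CHD1 and CHD9 that also lie there are not shown. The CHD3, CHD4 and CHD8 windows lie inside the spans of their genes, upstream of internal starts. These spans are chr17:7884796-7912755 for CHD3, chr12:6570082-6607379 for CHD4 and chr14:21385199-21456123 for CHD8.

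In control cells the members spanned a wide range of expression per kb of transcript. CHD4 had the highest level in each experiment, 6.83 ± 0.06 log2 CPM per kb (SD, n = 3) in untreated NT2/D1-A4 cells, 6.79 ± 0.03 in untreated 2102EP-C1 cells and 6.84 ± 0.01 in pLKO.1 cells. CHD1 and CHD8 followed, at 4.76 and 4.47 in NT2/D1-A4 cells, 4.47 and 4.49 in untreated 2102EP-C1 cells, and 4.64 and 4.72 in pLKO.1 cells. CHD5, which is best known from neurons and testis, was the lowest, at -4.10, -3.78 and -4.02, on 14 to 67 reads per control library. CHD4 alone gave 50.5% of the reads of the family in untreated NT2/D1-A4 cells, 53.3% in untreated 2102EP-C1 cells and 50.7% in pLKO.1 cells, by CPM.

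Some neighbours in the order of levels were not separated by the spread between libraries. In NT2/D1-A4 cells the library ranges of CHD9 and CHD2, of CHD2 and CHD6, and of CHD3 and CHD7 overlapped, and in untreated 2102EP-C1 cells those of CHD8 and CHD1. In pLKO.1 cells no neighbours overlapped. CHD7, the gene mutated in CHARGE syndrome, held the most different place between the lines. It was at 2.15 ± 0.08 log2 CPM per kb in NT2/D1-A4 cells, level with CHD3, but at -1.86 ± 0.11 and -1.21 ± 0.05 in the untreated and the pLKO.1 2102EP-C1 cells, below every member but CHD5. Per library this was 5.62 to 5.77 log2 CPM in the first and 1.58 to 1.79 and 2.29 to 2.39 in the others. The tables were normalized separately, and the level of CHD7 was not tested between lines.

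**Figure D1:**
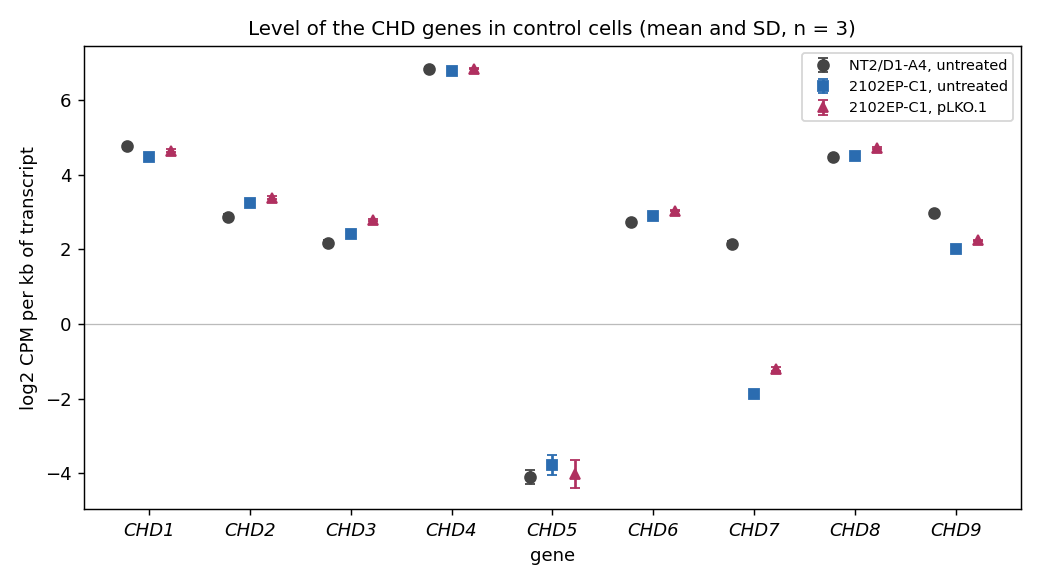
Level of the 9 CHD genes in the control arm of each experiment, as log2 CPM per kb of transcript (mean and SD of 3 libraries). CHD4 sits near 6.8 in all 3, CHD5 near -4, and CHD7 at 2.15 in NT2/D1-A4 cells but below 0 in both sets of 2102EP-C1 cells.

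A gene is said to rise or fall where its adjusted p was under 0.05 (limma-trend, two-sided, Benjamini-Hochberg over all genes of the experiment), and to be past both thresholds where its fold change was also over 1.3. Fold changes are on the log2 CPM scale with a prior count of 3, which understates the change of low genes such as CHD5. In each experiment the comparisons share control libraries. Their values are set side by side and are not independent of each other. Tests were made within experiments only. Shares of all genes are from the uncorrected fit of all 12 libraries. None is given for fits with a library left out or with the length and GC trend removed. Counts of members in those fits have no share to be read against.

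In NT2/D1-A4 cells most members of the family fell with GSK-J4 and CHD2 rose. Beside untreated cells, CHD8, a regulator of beta-catenin targets and CTCF sites, fell by 29.3%, and CHD1, CHD4, CHD6 and CHD9 fell less. CHD2 rose by 0.32 log2. Of 9 members, 1 was past both thresholds (20.3% of all genes were), and 1 rose and 5 fell (24.5% and 23.8% of all genes). The median member was at -0.18 log2, beside 0.01 for all genes. The summed CPM of the family went from 1462 ± 62.6 (SD, n = 3) to 1205 ± 45.1.

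CHD8 was at 7.63, 7.53 and 7.48 log2 CPM in the 3 untreated libraries and at 6.99, 7.10 and 7.05 with GSK-J4. All 3 GSK-J4 libraries were below all 3 untreated ones, and the change was -0.50 log2 (95% interval -0.60 to -0.40, adjusted p = 1.2e-07). CHD1, the remodeler tied to open chromatin in pluripotent cells, was at 7.86, 7.75 and 7.74 and fell to 7.44, 7.55 and 7.45 (-0.31, adjusted p = 8.3e-05). CHD4, the main NuRD motor here, was at 9.59, 9.51 and 9.48 and fell to 9.16, 9.24 and 9.21 (-0.33, adjusted p = 4.7e-05). Neither gene's groups overlapped. CHD6 fell by 0.34 log2 (adjusted p = 0.00021), from 6.10 to 6.21 to a range of 5.78 to 5.88. CHD9 fell by 0.18 (adjusted p = 0.0091), a call that was lost without untreated replicate 1 (adjusted p = 0.062) or without GSK-J4 replicate 1 (adjusted p = 0.060).

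CHD2, which helps deposit the variant histone H3.3 at active chromatin, went the other way. Its untreated libraries were at 6.16, 6.09 and 6.00 log2 CPM and its GSK-J4 libraries at 6.34, 6.45 and 6.42, with no overlap (0.32, interval 0.20 to 0.43, adjusted p = 0.0001). CHD3, the second NuRD motor, was 0.13 log2 lower (adjusted p = 0.097) and CHD7 0.04 higher (adjusted p = 0.67), and neither passed the test. CHD5 was at -0.99, -0.79 and -0.61 and at 0.04, -0.88 and -0.03, so that 1 of the 3 GSK-J4 libraries lay among the untreated ones (0.51, adjusted p = 0.091). Without that library, GSK-J4 replicate 2, CHD5 was past both thresholds (0.81, adjusted p = 0.0086), and so it was in the combination arm against untreated cells (0.52, adjusted p = 0.041 in place of 0.078).

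Cisplatin alone moved no member of the family past the test in NT2/D1-A4 cells (0 of 9, beside 9.43% of all genes at an adjusted p under 0.05 and 2.45% past both thresholds). The nearest was CHD3, at 5.09, 5.12 and 4.99 in untreated and 5.28, 5.19 and 5.24 in cisplatin libraries, which did not overlap (0.17, adjusted p = 0.093). At unadjusted p under 0.05, 4051 of all genes passed in this comparison, and CHD1 (-0.13, interval -0.24 to -0.02), CHD3 (interval 0.04 to 0.31) and CHD7 (-0.15) were among them. Fits without combination replicate 1 or without combination replicate 3, which only share the estimate of the spread, brought CHD3 (adjusted p = 0.017 and 0.034) and CHD1 (adjusted p = 0.041 and 0.050) under 0.05. With the length and GC trend of each library removed (a smooth curve over all genes), CHD3 rose (0.14, adjusted p = 0.036), and CHD1 (-0.17), CHD2 (-0.15) and CHD7 (-0.19) fell, none over the fold limit.

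In the combination arm the pattern of GSK-J4 alone recurred. Against untreated cells, CHD8 (-0.45, adjusted p = 3.7e-07) and CHD1 (-0.39, adjusted p = 4.1e-06) were past both thresholds, 2 of 9 members beside 25.4% of all genes. Counting every adjusted p under 0.05, 1 member rose (CHD2, 0.26) and 6 fell, beside 27.5% and 26.5% of all genes. CHD8 was at 7.20, 7.07 and 7.03 log2 CPM and CHD1 at 7.51, 7.37 and 7.29, all below the untreated libraries. The smaller falls of CHD9 (-0.15) and CHD3 (-0.16) were lost without untreated replicate 1 (adjusted p = 0.13 and 0.10) or combination replicate 2 (0.090 and 0.13), and that of CHD3 also without untreated replicate 2 (0.13) or combination replicate 3 (0.18). CHD1 dropped under the fold limit without untreated replicate 1 (-0.36) and without combination replicate 3 (-0.35). Combination replicate 1 was the highest library of its arm for 8 of the 9 members. The other arms had such a library too, untreated replicate 1 (7 members), cisplatin replicate 1 (8) and GSK-J4 replicate 2 (8). Members thus moved together between replicate libraries, and counts of members are not counts of separate observations. Without combination replicate 1 CHD4 also passed both thresholds (-0.40 in place of -0.33).

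Against cisplatin alone, the combination arm had CHD8 past both thresholds (-0.43, adjusted p = 9.5e-07), 1 of 9 members beside 20.7% of all genes, and 7 of 9 members at an adjusted p under 0.05 beside 48.4%. CHD3 fell here (-0.34, adjusted p = 0.00024), from 5.19 to 5.28 to a range of 4.77 to 5.08. CHD2 rose (0.38, adjusted p = 1.7e-05), just under the fold limit, and was past it without cisplatin replicate 1 (0.43) or 2 (0.38) and without combination replicate 2 (0.38) or 3 (0.41). Without combination replicate 1, 4 members were past both thresholds in this comparison, CHD3 (-0.43), CHD4 (-0.39), CHD6 (-0.38) and CHD8. Against GSK-J4 alone no member passed (0 of 9, beside 1.26% of all genes, and 2403 of all genes at unadjusted p under 0.05), and every member but CHD5 had an interval within 0.20 log2 of 0. The interaction of GSK-J4 and cisplatin, the difference between the cisplatin effect with and without the inhibitor, passed for no member (0 of 9, beside 0.0426% of all genes, and 1174 of all genes at unadjusted p under 0.05).

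**Figure D2:**
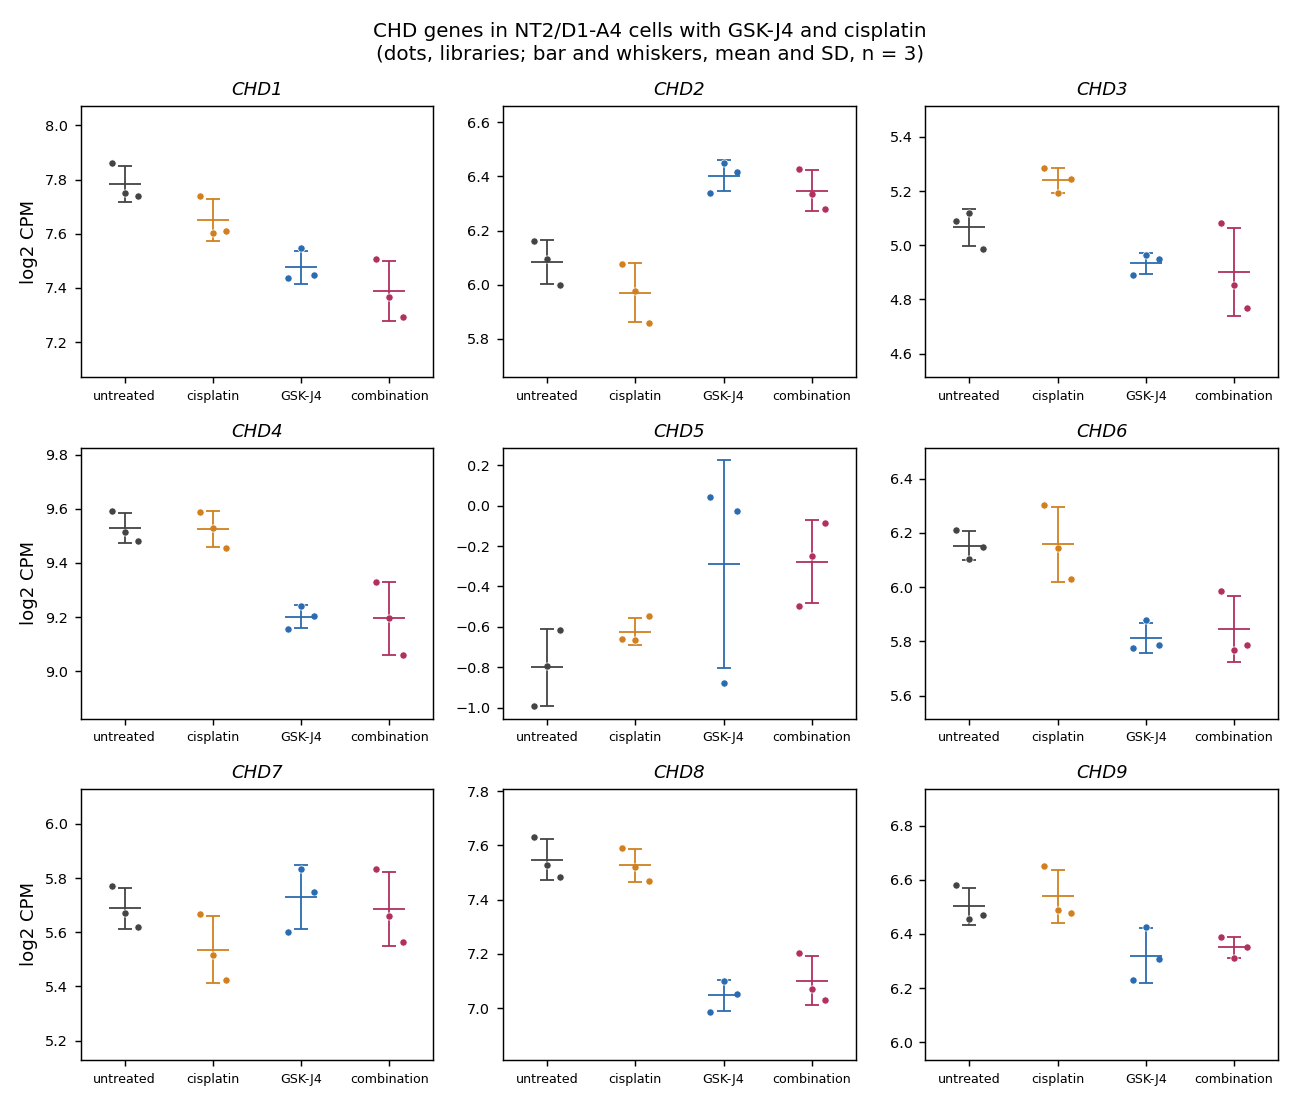
Expression of each CHD gene in the 12 NT2/D1-A4 libraries as log2 CPM, by arm (dots, libraries; bar and whiskers, mean and SD, n = 3). CHD8 lies at 7.48 to 7.63 in untreated and at 6.99 to 7.10 in GSK-J4 libraries, and CHD2 is higher in both arms with GSK-J4.

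The fall of the family in NT2/D1-A4 cells went with a lower sum of the embryonal carcinoma markers. This sum was 6818 to 6952 CPM in untreated, 5451 to 5590 in GSK-J4 and 4960 to 5368 in combination libraries, and its part in the result was not tested. LIN28A (11.2 to 11.4 log2 CPM) and DNMT3B (10.3 to 11.4) had the highest means of these markers in each experiment. The study reports lower DNMT3B with GSK-J4 and with knockdown. Changes of single markers are not given here, so the sum does not describe each of them. In cisplatin libraries, where no CHD gene passed, the marker sum was 6469 to 6694. Neural markers summed to 26.4 to 29.3 CPM in untreated, 31.3 to 35.3 in GSK-J4 and 37.2 to 41.5 in combination libraries, and endoderm markers to 2.38 to 3.02, 4.24 to 4.91 and 4.68 to 4.87. In bulk RNA, fewer cells of a type and less RNA per cell cannot be told apart. Transcript length and GC content were also examined, since all 9 members have transcripts of 6.491 to 11.606 kb. After the same correction, the NT2/D1-A4 falls with GSK-J4 were larger (CHD8 -0.58, CHD4 -0.40, CHD6 -0.41), and 3 members were past both thresholds in place of 1.

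In 2102EP-C1 cells CHD2 and CHD7 rose with GSK-J4, and the falls of the other members were smaller than in NT2/D1-A4 cells or did not pass, a difference between lines that was not tested. CHD7 was past both thresholds (0.38, interval 0.12 to 0.65, adjusted p = 0.023), 1 of 9 members beside 10.9% of all genes. CHD2 rose by 0.34 log2 (adjusted p = 2.6e-07) and CHD4 fell by 0.09 (adjusted p = 0.020), a fall lost without untreated replicate 2 (adjusted p = 0.11) or 3 (0.051) or GSK-J4 replicate 2 (0.062). In all 2 members rose and 1 fell at an adjusted p under 0.05, beside 19.2% and 16% of all genes.

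CHD7 was at 1.65, 1.79 and 1.58 log2 CPM in untreated and at 2.18, 2.20 and 1.78 in GSK-J4 libraries, on 106 to 155 reads per library in the first arm. One GSK-J4 library lay inside the untreated range. The call was lost without untreated replicate 1 (adjusted p = 0.064) or 3 (0.090) and without GSK-J4 replicate 1 (0.099) or 2 (0.10), and after the length and GC correction the value was 0.25 (adjusted p = 0.12). CHD2 was steadier, at 6.41, 6.49 and 6.50 in untreated and 6.80, 6.76 and 6.86 in GSK-J4 libraries, with no overlap. CHD8, which fell most in NT2/D1-A4 cells, was at 7.54, 7.63 and 7.56 and at 7.49, 7.52 and 7.58 (-0.04, interval -0.11 to 0.03, adjusted p = 0.35). CHD1, the open-chromatin remodeler, did not pass either (0.05, interval -0.02 to 0.13). With the length and GC trend removed CHD4 (-0.18), CHD6 (-0.18) and CHD8 (-0.16, adjusted p = 7.0e-05) fell here, CHD5 was past both thresholds (-0.63, adjusted p = 0.048), and CHD2 still rose (0.21, adjusted p = 8.4e-06). CHD5 was at -0.67, -0.17 and -0.60 log2 CPM in untreated and at -0.81, -0.74 and -1.70 in GSK-J4 libraries, on as few as 8 reads, and without GSK-J4 replicate 2 it was past both thresholds in the uncorrected fit too (-0.77, adjusted p = 0.039).

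Cisplatin alone again moved no member past the test (0 of 9, beside 4.08% of all genes at an adjusted p under 0.05 and 1.07% past both thresholds, and 2852 of all genes at unadjusted p under 0.05). With the combination CHD2 was past both thresholds, 1 of 9 members beside 22.6% of all genes. Its libraries were at 7.01, 6.86 and 6.89 log2 CPM, all above the untreated ones (0.46, interval 0.37 to 0.54, adjusted p = 5e-10), and 0.43 above cisplatin alone (adjusted p = 2.8e-09, the only such member, beside 19.3% of all genes). Against untreated cells CHD9, a coactivator of nuclear receptors, also rose (0.14, adjusted p = 0.0063), and CHD4 (-0.22), CHD8 (-0.14) and CHD6 (-0.13) fell, the last not without untreated replicate 2 (adjusted p = 0.066). That is 5 of 9 members at an adjusted p under 0.05, beside 53% of all genes.

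CHD4 declined further with the combination than with GSK-J4 alone. It was at 9.45, 9.52 and 9.48 log2 CPM in untreated, 9.44, 9.38 and 9.38 in GSK-J4 and 9.27, 9.23 and 9.31 in combination libraries, and the combination was 0.13 log2 below GSK-J4 (adjusted p = 0.0036), the only member of 9 that passed there (15.7% of all genes did, and 4997 of all genes at unadjusted p under 0.05). Without GSK-J4 replicate 3, CHD7 was past both thresholds in that comparison (-0.40, adjusted p = 0.023). The interaction was negative for CHD4 (-0.16, adjusted p = 0.038) and CHD8 (-0.18, adjusted p = 0.040), 2 of 9 beside 2.38% of all genes, neither over the fold limit (0.857% of all genes were). Both calls were lost without any 1 of untreated replicate 1 or 3, cisplatin replicate 1, 2 or 3, GSK-J4 replicate 1 or combination replicate 1 or 2 (adjusted p from 0.050 to 0.14) and with the length and GC trend removed (-0.10 and -0.12, adjusted p = 0.13 and 0.15). The same correction put CHD2 under the fold limit with the combination (0.31, adjusted p = 7.8e-09) and gave CHD9 -0.03 in place of 0.14, while the falls of CHD4 (-0.29), CHD6 (-0.27) and CHD8 (-0.25) were larger. Embryonal carcinoma markers summed to 9025 to 9254 CPM in untreated, 8516 to 8645 in cisplatin, 7926 to 8003 in GSK-J4 and 6999 to 7379 in combination libraries here, and endoderm markers to 0.966 to 1.42, 1.00 to 1.52, 1.98 to 2.29 and 2.14 to 2.60 in the same order. Their part was not tested.

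**Figure D3:**
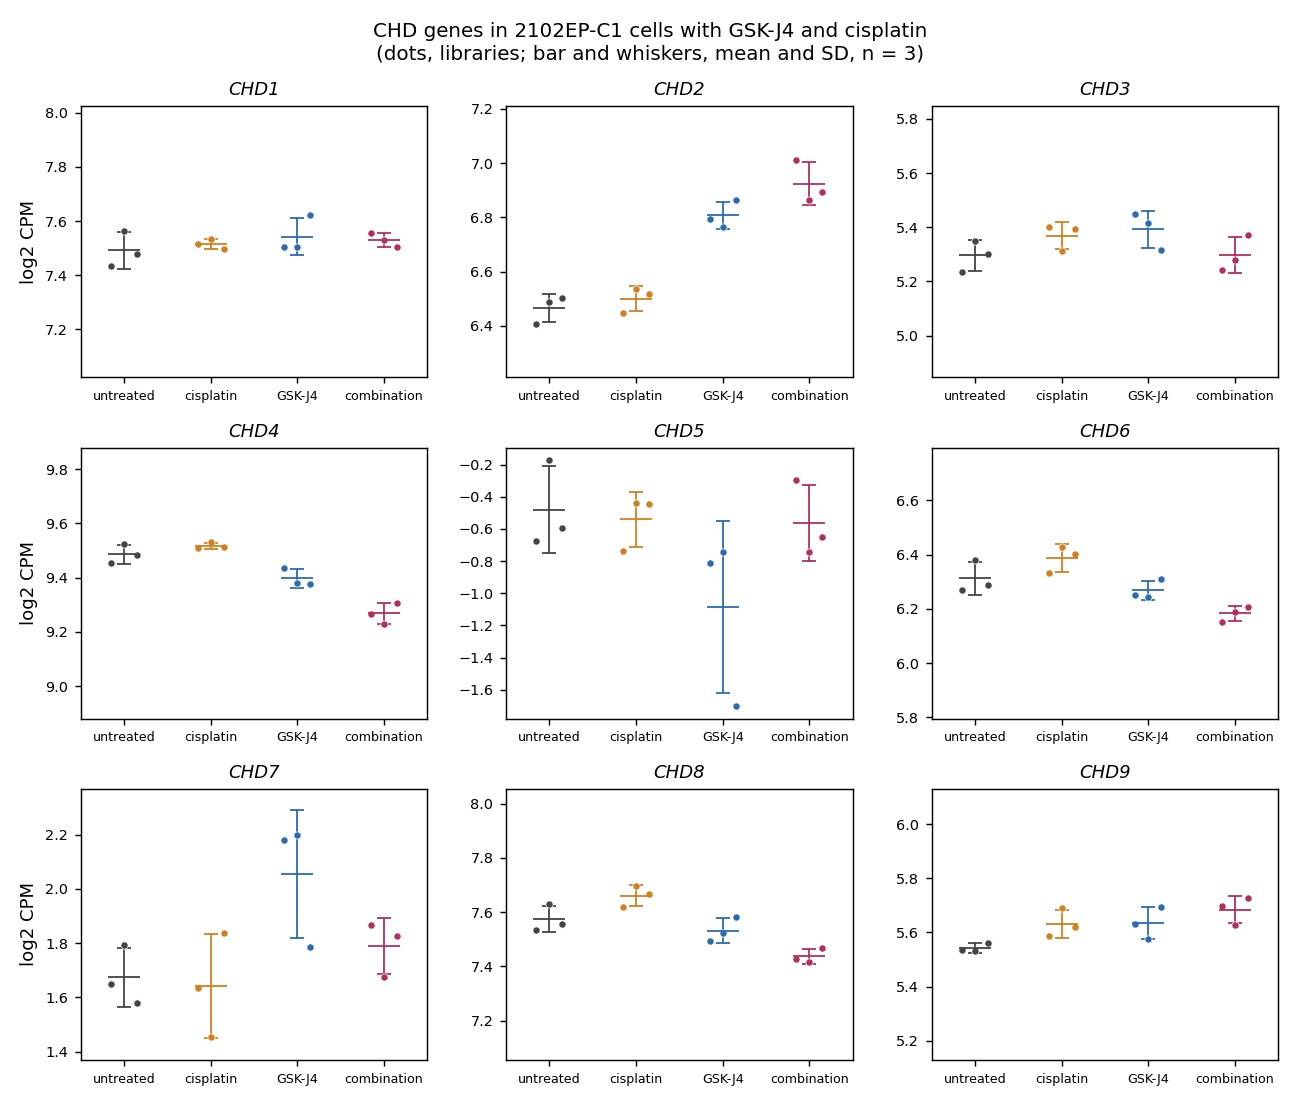
Expression of each CHD gene in the 12 2102EP-C1 libraries of the GSK-J4 experiment as log2 CPM, by arm (dots, libraries; bar and whiskers, mean and SD, n = 3). CHD2 lies at 6.41 to 6.50 in untreated and at 6.86 to 7.01 in combination libraries, and CHD4 is lowest with the combination.

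In the 2102EP-C1 knockdown experiment, cisplatin went with small rises of most members in pLKO.1 cells and with falls in sh6A+6B cells. With the vector, 6 members rose and CHD7 fell at an adjusted p under 0.05 (beside 17.9% and 18.2% of all genes), none over the fold limit (3% of all genes were). The largest rises were 0.15 for CHD9 and 0.13 for CHD2. The smallest, 0.04 for CHD4, was lost without any 1 of the 6 libraries compared (adjusted p from 0.066 to 0.14), and that of CHD8 (0.06) without pLKO.1 replicate 1 (0.072) or pLKO.1 cisplatin replicate 2 (0.067). With the hairpins, 8 members fell and none rose (beside 22.7% and 22.1% of all genes), with values from -0.09 for CHD9 to -0.58 for CHD7. Only CHD5, on 26 to 47 reads per library, did not pass (-0.14, interval -0.55 to 0.27).

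Knockdown without cisplatin moved CHD7 furthest. CHD7 was at 2.30, 2.29 and 2.39 log2 CPM in pLKO.1 and at 3.08, 3.12 and 3.12 in sh6A+6B libraries, a rise of 71.2% (0.78 log2, interval 0.66 to 0.89, adjusted p = 2.5e-11), and was the only one of 9 members past both thresholds (12.1% of all genes were). CHD3, CHD4, CHD6 and CHD8 fell by 0.12 to 0.14 log2, so that 1 member rose and 4 fell beside 25.6% and 27.2% of all genes. CHD1 (0.01) and CHD2 (0.02) did not pass, with intervals within 0.07 log2 of 0. CHD5 was 0.44 log2 lower (adjusted p = 0.064), and past both thresholds without pLKO.1 replicate 3 (-0.63) or sh6A+6B replicate 3 (-0.65). Cisplatin in the knockdown cells then brought CHD7 down to 2.61, 2.52 and 2.45 (-0.58, adjusted p = 7.7e-09), the only member past both thresholds there (3.52% of all genes were), with CHD3 joining it without sh6A+6B cisplatin replicate 3 (-0.39). It stayed above every pLKO.1 library.

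CHD3 and CHD4, the expressed NuRD motors, were both lowest with hairpins and cisplatin. CHD4 was at 9.55, 9.54 and 9.53 log2 CPM in pLKO.1, 9.58, 9.59 and 9.58 with cisplatin, 9.43, 9.42 and 9.43 in sh6A+6B and 9.10, 9.12 and 9.17 in sh6A+6B cisplatin libraries. The last arm lay below all others, by 0.41 log2 against pLKO.1 (adjusted p = 5.5e-16). CHD3 was at 5.68, 5.67 and 5.63, at 5.76, 5.77 and 5.77, at 5.55, 5.51 and 5.58, and at 5.12, 5.19 and 5.24 in the same order of arms. It too was lowest in the last arm (-0.48 against pLKO.1, adjusted p = 3.7e-13). CHD5 was past both thresholds in that comparison (-0.59, adjusted p = 0.013), but not without pLKO.1 replicate 2 (adjusted p = 0.11) or without sh6A+6B cisplatin replicate 3 (adjusted p = 0.057). In all, 3 of 9 members were past both thresholds there, beside 16% of all genes. With the length and GC trend removed none was (CHD4 -0.31, CHD3 -0.32), and CHD5 did not pass (-0.33, adjusted p = 0.15). The CHD3 locus overlaps the measured gene NAA38, and how reads of the shared part were assigned was not stated.

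CHD2 rose with cisplatin in vector cells and fell with it in knockdown cells. It was at 6.61, 6.65 and 6.58 log2 CPM in pLKO.1 libraries, rose to 6.75, 6.75 and 6.73 with cisplatin, was at 6.63, 6.62 and 6.65 in sh6A+6B libraries, and fell to 6.26, 6.27 and 6.33 with cisplatin there. No library of the last arm reached any other arm. CHD6, whose locus overlaps the measured gene LOC124904904, was at 6.44 to 6.47, 6.53 to 6.58, 6.30 to 6.33 and 6.09 to 6.13. CHD1 was at 7.64 to 7.71 and 7.70 to 7.71 with the vector, at 7.64 to 7.72 with the hairpins, and at 7.43 to 7.50 with hairpins and cisplatin.

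Between the cisplatin-treated arms, sh6A+6B against pLKO.1, 6 of 9 members were past both thresholds, beside 15.2% of all genes, and all 9 had an adjusted p under 0.05, beside 61.6%. CHD3 (-0.58, adjusted p = 1.1e-14), CHD6 (-0.46), CHD2 (-0.45), CHD4 (-0.45) and CHD5 (-0.81, adjusted p = 0.0011) were lower and CHD7 (0.39, adjusted p = 9.8e-07) was higher. CHD7 dropped under the fold limit without sh6A+6B cisplatin replicate 1 (0.35). CHD8 (-0.29), CHD1 (-0.23) and CHD9 (-0.19) fell less. The median member was at -0.45 log2 beside 0.00 for all genes, and the libraries of both arms did not overlap for any of the 9 (65.2% of all genes). The summed CPM of the family was 1530 ± 7.62 in pLKO.1 cisplatin and 1172 ± 25.3 in sh6A+6B cisplatin cells (SD, n = 3).

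The interaction tested whether cisplatin acted differently with the knockdown. It was negative for 8 of 9 members at an adjusted p under 0.05, beside 18% of all genes, and for 3 of 9 past both thresholds, beside 3.77%. The 3 were CHD2 (-0.47, interval -0.54 to -0.41, adjusted p = 4.3e-11), CHD3 (-0.47, interval -0.55 to -0.39, adjusted p = 1.7e-09) and CHD7 (-0.38, interval -0.54 to -0.22, adjusted p = 0.00033). CHD4 (-0.34), CHD6 (-0.31), CHD1 (-0.24), CHD9 (-0.24) and CHD8 (-0.17) had smaller values, and CHD5 did not pass (-0.36, adjusted p = 0.35). CHD7 lay at the edge of the fold limit, and leaving out pLKO.1 replicate 1 or 2, pLKO.1 cisplatin replicate 3, or replicate 2 or 3 of either sh6A+6B arm put it under (-0.34 to -0.38). From these same libraries the study reports CHD genes among chromatin modifiers lowered by cisplatin in the knockdown cells alone. The interaction counts are therefore not independent of that report.

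**Figure D4:**
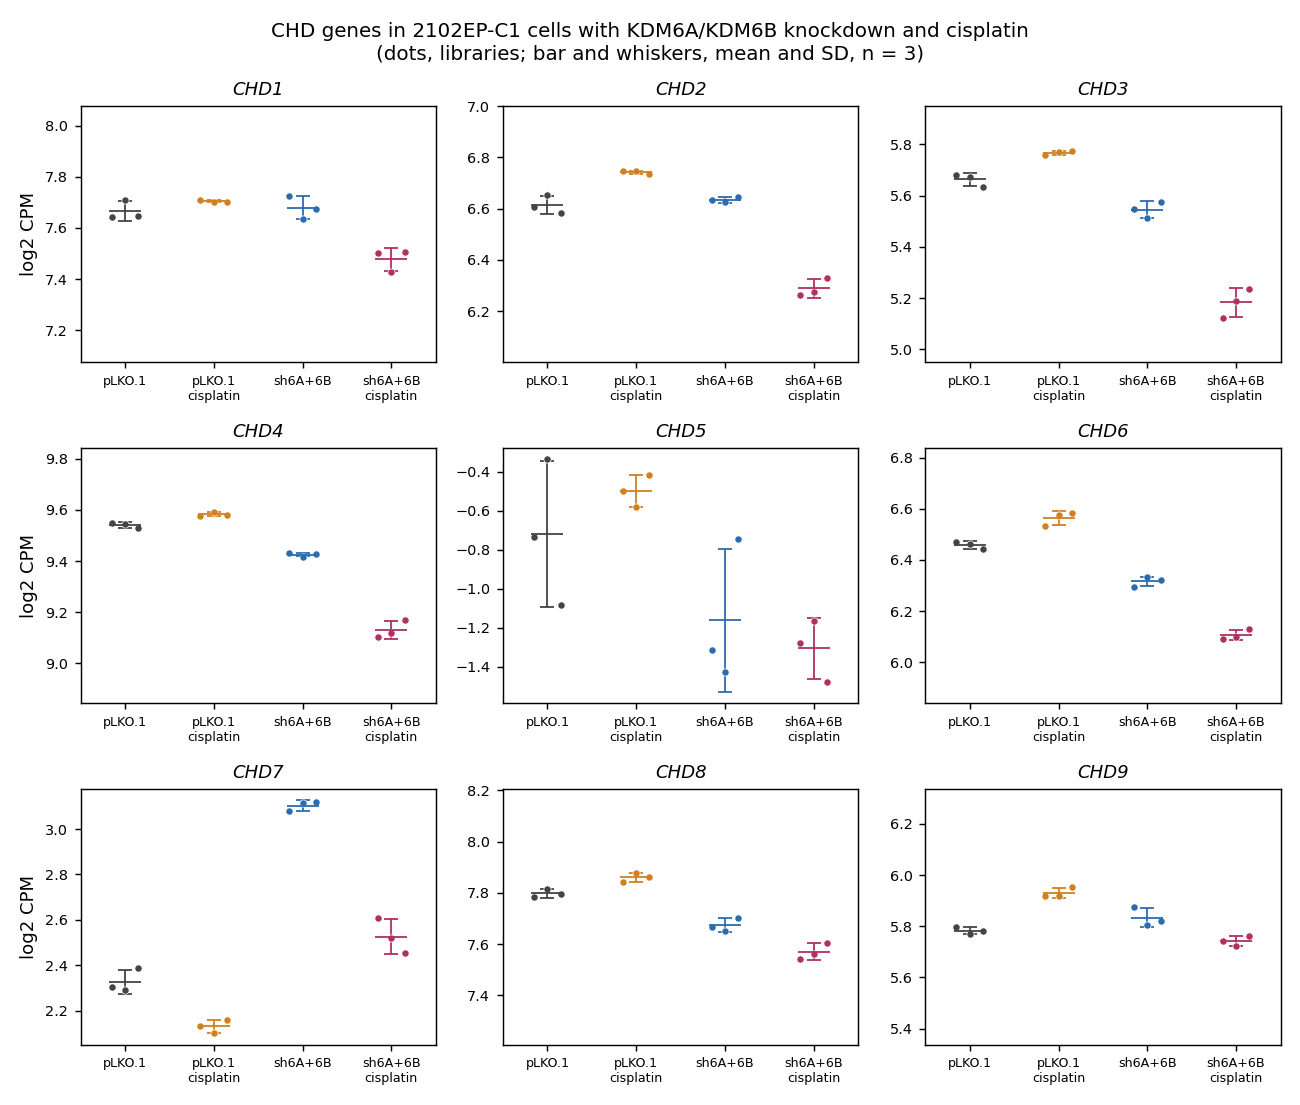
Expression of each CHD gene in the 12 libraries of the knockdown experiment as log2 CPM, by arm (dots, libraries; bar and whiskers, mean and SD, n = 3). CHD7 is highest in sh6A+6B cells at 3.08 to 3.12, and the mean of every member but CHD7 is lowest in sh6A+6B cells with cisplatin.

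Transcript length and GC content moved with these results. Over all genes with transcripts over 6 kb, a range that holds all 9 members, the median change was 0.08 log2 for cisplatin in pLKO.1 cells, -0.08 for cisplatin in sh6A+6B cells, -0.13 between the cisplatin-treated arms and -0.17 for the interaction. With the length and GC trend removed, no member passed the fold limit for the interaction (0 in place of 3), and 5 in place of 8 had an adjusted p under 0.05. These were CHD2 (-0.28, adjusted p = 2.4e-10), CHD3 (-0.28, adjusted p = 6.4e-08), CHD4 (-0.19, adjusted p = 4.4e-10), CHD1 (-0.12) and CHD6 (-0.08). CHD7 (-0.13, adjusted p = 0.26), CHD8 (0.03, adjusted p = 0.42) and CHD9 (-0.04, adjusted p = 0.32) were lost. The share of all genes that passed in the corrected fit is not given, so whether the members still stood out was not tested.

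The rises with cisplatin in pLKO.1 cells were lost as well. None of the 6 remained under the correction, which gave 0.03 for CHD2 and 0.05 for CHD3, while CHD7 still fell (-0.32, adjusted p = 2.4e-05). In sh6A+6B cells 6 of the 8 falls with cisplatin remained, from -0.10 for CHD6 to -0.45 for CHD7. Between the cisplatin-treated arms all 9 kept an adjusted p under 0.05, with 2 of 9 in place of 6 past both thresholds (CHD5 -0.47, CHD7 0.61). The rise of CHD7 with knockdown alone changed little (0.73, adjusted p = 4.3e-13). The part of length and GC content as such in the uncorrected values was not tested further.

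**Figure D5:**
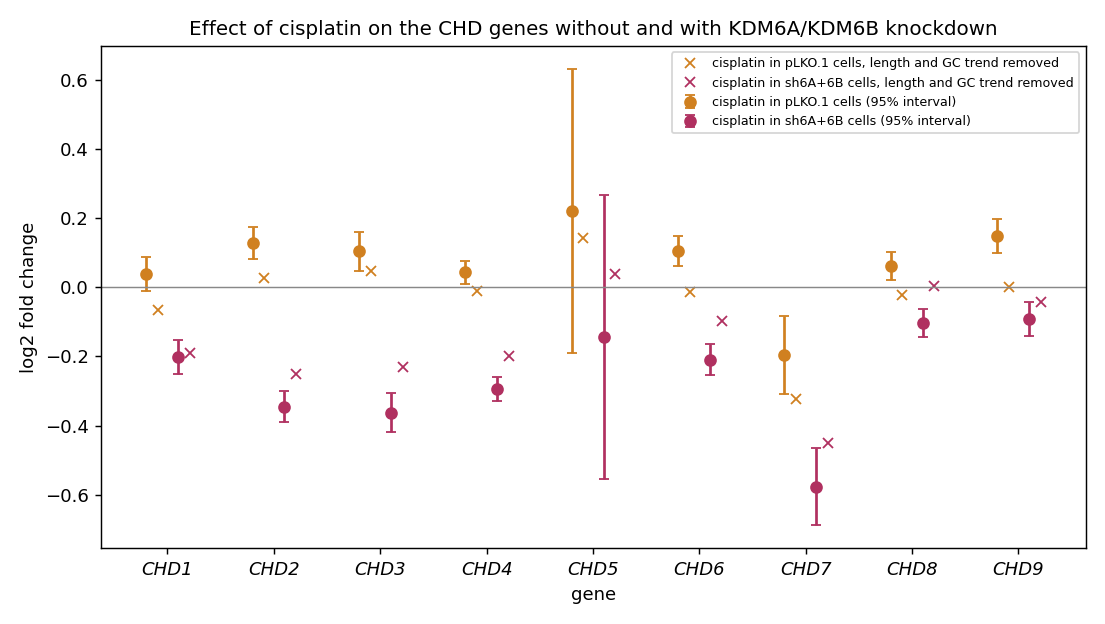
Log2 fold change of each CHD gene with cisplatin in pLKO.1 and in sh6A+6B cells (dots, with 95% intervals of the limma-trend fit of 3 libraries per arm; crosses, the same with the length and GC trend removed). For CHD2 the dots are at 0.13 and -0.35 and the crosses at 0.03 and -0.25.

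Embryonal carcinoma markers had a summed level of 8376 to 8404 CPM in pLKO.1 and 7910 to 7984 in pLKO.1 cisplatin libraries. It was 7608 to 7681 in sh6A+6B and 7096 to 7125 in sh6A+6B cisplatin libraries. The summed CPM of the CHD family was 1468, 1530, 1389 and 1172 in the same order of arms. With cisplatin in pLKO.1 cells the marker sum was thus lower and the family sum higher. The part of the markers in the CHD values was not tested. The GSK-J4 and the knockdown experiment in 2102EP-C1 cells gave different values for CHD2 in the arm with both agents against the arm with none, 0.46 for the inhibitor with cisplatin and -0.33 for hairpins with cisplatin (adjusted p = 6.4e-12), a difference that was not tested. CHD4 was lower in both (-0.22 and -0.41).

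The partners of the CHD proteins were followed through lists chosen with earlier results of these data known, counting members with an adjusted p under 0.05 (limma-trend, Benjamini-Hochberg over all genes). In NT2/D1-A4 cells with GSK-J4, 7 of 12 non-CHD NuRD subunits fell and none rose, beside 23.8% and 24.5% of all genes, with a median of -0.15 log2 beside -0.18 for the CHD genes and 0.01 for all genes. The counts that follow for GSK-J4 are to be read against the same shares. In the ChAHP complex CHD4 works with ADNP and HP1 proteins. Of 4 genes listed as partners there or their kin, 3 fell. ADNP2, a relative of ADNP, was past both thresholds (-0.39, adjusted p = 1.3e-07). Of 9 elongation factors, the class with which CHD1 is associated, 8 fell, SUPT5H the most (-0.57, adjusted p = 4.4e-08). Of 4 subunits of the MLL core, which writes the mark that the chromodomains of CHD1 read, 2 fell. Of 13 other remodeler ATPases 3 rose and 9 fell, with SRCAP, which exchanges H2A.Z, at -0.58 (adjusted p = 6.6e-08) and SMARCA2, a BAF motor, at 0.58 (adjusted p = 9.8e-08). With the combination against untreated cells, 10 of 12 NuRD subunits fell and none rose, beside 26.5% and 27.5% of all genes. The partners farthest from 0 past both thresholds there were SRCAP (-0.62), the PAF complex subunit LEO1 (-0.60, adjusted p = 3.7e-09), the NuRD subunit MBD2 (-0.49, adjusted p = 0.00016), ADNP2 (-0.43) and SMARCA2 (0.55). Against cisplatin they were SUPT5H (-0.56), SRCAP (-0.46) and SMARCA2 (0.46).

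In 2102EP-C1 cells with the combination, 8 of 12 NuRD subunits and 4 of 4 genes of the ChAHP list fell and none rose, beside 25.6% and 27.4% of all genes. Of 13 other remodeler ATPases 5 fell and 3 rose. Of 9 elongation factors 3 fell and 1 rose, and of 4 MLL core subunits 1 fell and none rose. SRCAP (-0.53, adjusted p = 4.3e-12) and MBD3 (-0.47, adjusted p = 6.0e-07), the methyl-CpG binding family subunit of NuRD, were past both thresholds, and SRCAP was at -0.49 against cisplatin. In the knockdown experiment the interaction was positive for 17.2% and negative for 18% of all genes at an adjusted p under 0.05. It was negative for 11 and positive for 1 of 13 other remodeler ATPases (median -0.20 log2, beside -0.34 for the CHD genes), with EP400, the motor of the TIP60 complex, at -0.52 (adjusted p = 8.7e-12). It was positive for 6 and negative for 2 of 12 NuRD subunits (median 0.05), and positive for 2 of 4 MLL core subunits with none negative (median 0.14). Among 9 elongation factors 1 was positive and 3 were negative. Over all genes with transcripts over 6 kb the median interaction was -0.17 log2. List values with the length and GC trend removed are not given here. The difference between lists, and the part of transcript length in it, was not tested. Between the cisplatin-treated arms GATAD2B was the NuRD subunit past both thresholds (-0.41, adjusted p = 3.6e-13) and EP400 was at -0.60 (adjusted p = 7.8e-17). In sh6A+6B cisplatin against pLKO.1 cells, 10 of 12 NuRD subunits fell and none rose, beside 5217 and 5082 of all 16459 genes. The NuRD subunit CDK2AP1 (-0.46, adjusted p = 2.6e-15) and EP400 (-0.42) were past both thresholds there, and against sh6A+6B cells SRCAP was (-0.40).

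The genes most like each member were found from the 12 arm means over the 3 experiments, each centred on its experiment, by the root mean square difference among 15050 genes measured in all 3. BAZ2A, a subunit of the nucleolar remodeling complex, was closest to CHD4, at 0.017 log2 where CHD4 itself varied by 0.15, followed by the methyltransferase SETD1B (0.031). POLR2A, the large subunit of RNA polymerase II, was closest to CHD6 (0.028), with BAZ2A next (0.033). MGA (0.028) and ERBB3 (0.029) were closest to CHD8, and PTPN12 (0.028) and SETD2 (0.031) to CHD1. CHD9 was past both thresholds nowhere, and no like genes were sought for it. For CHD3 these were ADCY1 (0.047) and TRRAP (0.054), and for CHD2 IRS2 (0.050) and TTC28 (0.050). CHD7 and CHD5 had no near match, the closest being TEF (0.11) and LOC124900601 (0.11) for CHD7 and PGAM1P5 (0.11) and DLK1 (0.13) for CHD5. The arm means share libraries, depth and length effects, and the likeness is a description.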

How the data were processed

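RNA was sequenced from 36 libraries in 3 experiments of 4 arms. Per the study's methods, reads were aligned by the authors to GRCh38.p14 (STAR) and assigned to genes (featureCounts), genes needed more than 0.5 CPM in 2 or more samples to be kept, and TMM factors were applied. Tool versions and the strand setting are not given in the sources used here. The values the authors deposited are log2 CPM. By their values, 3 reads, scaled to each library's TMM-adjusted size, had been added before the logarithm, since reads recovered under that formula were within 0.05 of whole for 100% of values under 50 reads.

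Per experiment, limma-trend (limma 3.58.1, R 4.3.3) was fitted to all genes of the 12 libraries with a mean per arm and no block. Contrasts were two-sided, with Benjamini-Hochberg adjustment over all genes. The thresholds, a fold of 1.3 and an adjusted p of 0.05, follow the study. Levels per kb used canonical transcripts of GENCODE release 44. The length and GC correction removed, in each library, a spline with 4 degrees of freedom in each. Lengths were matched for 91.1%, 91.4% and 92.5% of genes. Windows upstream of annotated starts are from RefSeq. The fits were also run on simulated data with a single low spread for all genes and changes in a single arm. That run does not cover the uneven spread of these libraries, and its outcome is not given here.

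All 9 CHD genes, KDM6A, KDM6B, the largest rise and fall past both thresholds in each partner list, and the 2 genes most like each member past both thresholds in at least 1 comparison were named. The members and lists were chosen with earlier results of these data known, and the study itself discusses CHD genes from these samples. Replicate libraries differed by more than sampling noise (chi-square per gene 1.67 to 24.8), and none was counted as a duplicate. Alternatives tried were other thresholds, only the samples compared, a replicate block, a low-value filter, recovered reads with voom, library size alone, another prior count, the length and GC correction, and leaving out each library.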

Additional observations from a re-analysis of the deposited data

Results flagged for a closer look

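In the knockdown experiment the effect of cisplatin differed between sh6A+6B and pLKO.1 cells by the test of the interaction (limma-trend, adjusted p under 0.05) for CHD2 (-0.47), CHD3 (-0.47), CHD7 (-0.38), CHD4 (-0.34), CHD6 (-0.31), CHD1 (-0.24), CHD9 (-0.24) and CHD8 (-0.17). With the length and GC trend removed the values were -0.28, -0.28, -0.13, -0.19, -0.08, -0.12, -0.04 and 0.03 in the same order. In 2102EP-C1 cells with GSK-J4 the same kind of difference had an adjusted p under 0.05 for CHD4 (-0.16) and CHD8 (-0.18). Neither passed with the length and GC trend removed (-0.10 and -0.12, adjusted p = 0.13 and 0.15) or without any 1 of 8 single libraries, and CHD4 did not with the replicate block (adjusted p = 0.060).

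Every CHD9 library of the GSK-J4 and combination arms lay below the mean of the untreated libraries in NT2/D1-A4 cells and above it in 2102EP-C1 cells. With GSK-J4 the value was -0.18 in NT2/D1-A4 and 0.092 in 2102EP-C1 cells, where it did not pass the test (adjusted p = 0.095), and with the combination -0.15 and 0.14. The difference between the lines was not tested, and with the length and GC trend removed the 2102EP-C1 values were -0.028 and -0.033.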

How the results depend on the processing

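Counts of CHD genes past both thresholds were recomputed for all 18 comparisons. With only the samples compared (no value for interactions, which need all 4 arms), a low-value filter (which leaves CHD5 out), a prior count of 0.5, or the replicate block alone, every count stayed within 1.5 times its own. Same-numbered libraries did not all deviate together (correlations -0.25 to 0.42, and -0.17 to 0.33 in the knockdown experiment). Of 12 libraries each, 4, 2 and, with knockdown, 7 correlated best with their own number. The block ended 1 call, CHD4 in the 2102EP-C1 GSK-J4 interaction (adjusted p = 0.060).

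Without the fold limit, NT2/D1-A4 counts went from 1 to 6 (GSK-J4), 2 to 7 (combination) and 1 to 7 (combination against cisplatin). Of all genes 48.3%, 54% and 48.4% passed there. In 2102EP-C1 cells with GSK-J4 they went from 1 to 3, 1 to 5 and 1 to 4 (35.2%, 53% and 49.4% of all genes). They went from 0 to 1 against GSK-J4 (15.7%), and from 0 to 2 for the interaction (2.38%). In the knockdown experiment they went from 0 to 7 (pLKO.1 cisplatin), 1 to 5 (sh6A+6B), 3 to 8 and 1 to 8 (sh6A+6B cisplatin against pLKO.1 and against sh6A+6B) and 3 to 8 (interaction). Of all 16459 genes, 5946, 8685, 10299, 7369 and 5785 passed in the same order. A fold of 1.2 with an adjusted p of 0.001 gave 5, 4 and 5 in NT2/D1-A4 cells (19.8%, 24.6% and 19.3% of all genes), and 4 (sh6A+6B cisplatin against sh6A+6B, 5.3%) and 5 (interaction, 7.3%) in the knockdown experiment. With the length and GC trend removed, with or without the replicate block, NT2/D1-A4 counts were 3, 4 and 3, both 2102EP-C1 combination counts (against untreated and cisplatin) were 0, and knockdown counts were 0 (sh6A+6B cisplatin against pLKO.1), 2 (cisplatin-treated arms) and 0 (interaction). Voom on recovered reads gave 2 for the NT2/D1-A4 combination against cisplatin, as did library size alone, which gave 1 against untreated cells.

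The same length and GC correction, with or without the block, turned the sign of CHD1 (-0.13), CHD9 (-0.033) and KDM6A (-0.060) in the 2102EP-C1 combination against untreated cells and of CHD1 against cisplatin (-0.12). It did so for CHD1 (-0.067), CHD4 (-0.0096), CHD6 (-0.013), CHD8 (-0.023) and CHD9 (-0.00011) with cisplatin in pLKO.1 cells, for CHD1 with knockdown (-0.067), and for CHD8 with cisplatin in sh6A+6B cells (0.0042) and in the interaction (0.027). Sign changes between values that both missed the test were not counted. The cause was not tested.

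Leaving out single libraries, counts ran from 1 to 2 (GSK-J4), 1 to 3 (combination) and 1 to 4 (combination against cisplatin) for NT2/D1-A4. For 2102EP-C1 with GSK-J4 they ran from 0 to 1 (GSK-J4 and combination against GSK-J4) and stayed at 1 with the combination. In the knockdown experiment they ran from 1 to 2 (sh6A+6B), 2 to 3, 1 to 2 and 5 to 6 (sh6A+6B cisplatin against pLKO.1, sh6A+6B and pLKO.1 cisplatin) and 2 to 3 (interaction). All others stayed at 0. CHD5, at 8 to 67 reads per library, is limited by depth.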

Other observations

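CHD3 lies on chromosome 17, 30 kb from the end of KDM6B (RefSeq, GRCh38.p14). KDM6B rose with GSK-J4 in both lines while CHD3 did not pass the test in either with all libraries (-0.13 in NT2/D1-A4 and 0.096 in 2102EP-C1 cells). In NT2/D1-A4 cells CHD3 fell with the length and GC trend removed (-0.18, adjusted p = 0.0013) and without combination replicate 1 (adjusted p = 0.023) or 3 (0.046), and in 2102EP-C1 cells it rose without GSK-J4 replicate 3 (0.13, adjusted p = 0.025). KDM6B and CHD3 were both lower with sh6A+6B, by 1.01 and 0.12 log2.

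By CPM, the share of the family's reads taken by CHD4 was lowest in the arm with both agents of 2102EP-C1 experiments, 48.8% ± 0.50 in combination libraries beside 53.3% ± 0.27 untreated, and 47.8% ± 0.25 with hairpins and cisplatin beside 50.7% ± 0.34 in pLKO.1 cells (SD, n = 3). In NT2/D1-A4 cells it was 49.1% ± 0.92 with the combination and 50.5% ± 0.18 untreated.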
